A study of Mus musculus with 60 samples.

Results

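The genes described here are 33 genes of the chaperone and stress-response systems that keep proteins folded: the ER chaperones and their partners, the ER-associated degradation genes, the transcription factors of the unfolded protein response, the cytosolic heat-shock proteins and the mitochondrial chaperonin. They were taken as a list of gene symbols, which was drawn up with earlier results of these data known, and all 33 were found among the 35999 genes of the deposited table. The study sorted microglia (CD45low-int/CD11b+) and astrocytes (ACSA2+) from the brains of male wild-type C57BL/6J mice (WT) and of their littermates carrying the APPswe/PS1ΔE9 transgenes (AD), which produce human amyloid-β, at 2, 4, 6, 9 and 12 months of age. The labels name 60 RNA-seq libraries, 3 in each of the 20 groups, and the table holds 1 value per gene and group, in FPKM (fragments per kilobase of transcript, corrected for sequencing depth). The promoter that drives the transgenes is not given in the sources used here, and the labels name no batch, so an age and the day on which its mice were processed cannot be told apart.

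Because each group value is a mean over its libraries, the whole read counts of the single libraries could be recovered from its digits. In 18 groups the digits fitted a mean of 3 libraries. WT microglia at 12 months and AD microglia at 4 months fitted a mean of 2, where the labels name 3. So 28 microglia and 30 astrocyte libraries entered the tests. The libraries carry no number of their own and are called a, b and c. Of the 660 group values of the 33 genes, 655 were resolved into libraries, the exceptions being Syvn1 in WT microglia at 9 months and Hsp90aa1 in WT astrocytes at 2 and 4 months and AD astrocytes at 4 and 6 months. The fragments so recovered summed to 10.1 to 17.0 M per microglia library and 11.5 to 15.6 M per astrocyte library, without the genes left unresolved, which held 3.16 to 39.0% of the length-weighted FPKM of a microglia group and 28.0 to 37.7% of that of an astrocyte group. The depth by which each library's FPKM had been divided, 13.1 to 20.3 M in microglia and 17.8 to 22.8 M in astrocytes, was a whole number in 0 of 58 libraries and lay below the recovered fragments in 1, a library of AD microglia at 4 months, so it is a scaled depth and not a count of fragments. Differences were tested with limma on log2(FPKM + 0.1) after scaling, and a gene is called changed at a Benjamini-Hochberg adjusted p below 0.05 over all genes tested together with a log2 fold change beyond 0.5 in either direction. The adjusted p-values measure the spread between libraries that each came from a single brain. The study stained cells for both sorts together, so a microglia and an astrocyte library can share a brain. The tests between the cell types treated all libraries as independent. In bulk samples, fewer cells of a type and less RNA per cell cannot be told apart. Levels run in the order of 2, 4, 6, 9 and 12 months wherever 5 values are given. Where libraries are said not to overlap, this describes the values of the genes named. The share of all genes without overlap is not given, so it is not read as further support.

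The sorted populations were checked against their defining markers. Tmem119 stood at 1336 to 4047 FPKM in the microglia groups and at 1.45 to 3.48 FPKM in the astrocyte groups, and Aqp4 at 41.0 to 72.7 FPKM in astrocytes and 0.411 to 7.29 FPKM in microglia. The astrocyte groups also carried transcripts of oligodendrocytes: 9 oligodendrocyte markers summed to 12321 to 20649 FPKM there, against 377 to 641 FPKM for 8 astrocyte markers, so values called astrocytic here are those of the ACSA2+ sort and not of astrocytes alone. In the microglia groups 8 choroid plexus markers summed to 329, 2135, 3505, 268 and 11.1 FPKM in WT and 1232, 5646, 5038, 203 and 1001 FPKM in AD. Their part in the results below was not tested.

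The ER holds a luminal Hsp70, BiP, which binds unfolded chains together with J-domain partners and a nucleotide exchange factor, and the lectin chaperones and disulfide isomerases that fold glycoproteins. When unfolded protein accumulates, sensors in the ER membrane start the unfolded protein response, in which Xbp1, Atf6, Atf4 and Ddit3 raise chaperone, degradation and stress genes. In the cytosol the heat-shock factor Hsf1 does the same for the inducible Hsp70, Hsp90, Hsp40 and small heat-shock proteins. In glia both systems are known to be active, and the inducible Hsp70 genes are also known to rise when tissue is dissociated.

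The DNA before some of these genes holds the letters of known stress elements. RefSeq promoters of GRCm38.p6, 250 bases before to 50 after each annotated start, were at hand for 29 of the 33 genes, all but Hyou1, Manf, Hspa8 and Hsp90aa1. The ER stress element, CCAAT and CCACG with 9 bases between them on either strand, was found in 8 of the 29 (27.6%), against 0.137% of the 27025 genes with a promoter in the table. By role, it was held by 4 of 7 genes of the ER Hsp70 and Hsp90 system (Hspa5, Hsp90b1, Dnajc3 and Creld2), by 3 of 6 lectin chaperones and isomerases (Calr, Canx and Pdia6), by 1 of 4 degradation genes (Syvn1) and by none of the 7 cytosolic genes. The second form, ATTGG and CCACG 1 base apart, was found in Herpud1 and in Dnajb11, where it lay after the start, against 0.0444% of all genes. A heat shock element, 3 alternating GAA and TTC units with 2 bases between them, was found in 3 of the 29, against 0.662% of all genes: Hspd1 and Hspe1, which share the stretch between their starts, and Hsph1, after its start. It was thus held by 1 of the 7 cytosolic genes, and Hspa1a, Hspa1b, Dnaja1, Dnajb1, Hspb1 and Bag3 had no match. CCAAT alone, which every ER stress element also contains, was found in 25 of 29 (86.2%), against 41.1%, the Atf4 site TGATGCAA in Herpud1 alone, against 1.03%, and the Xbp1 and Atf6 site TGACGTGG in none, against 0.714%. These are matches of letters and not measured sites. The following stretches are shown because they hold the elements of the ER genes whose levels are described below and of the mitochondrial pair, read from 5′ to 3′ on the strand of the gene, with positions counted from the annotated start and the letters of the elements in capitals. That of Hsp90b1 is longer because it holds 2 elements, and those of Dnajb11 and Hsph1, which lie after the start, are not printed.
Hspa5 (chr2:34772013-34772055, strand +, positions -77 to -35): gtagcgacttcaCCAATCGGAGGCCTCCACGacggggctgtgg
Hsp90b1 (chr10:86705521-86705668, strand -, positions -224 to -77): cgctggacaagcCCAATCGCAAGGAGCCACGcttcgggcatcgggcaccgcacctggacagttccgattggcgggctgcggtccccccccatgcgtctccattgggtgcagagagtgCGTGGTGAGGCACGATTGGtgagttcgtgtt
Dnajc3 (chr14:118937815-118937857, strand +, positions -117 to -75): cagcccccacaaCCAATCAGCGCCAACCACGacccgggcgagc
Creld2 (chr15:88819508-88819550, strand +, positions -138 to -96): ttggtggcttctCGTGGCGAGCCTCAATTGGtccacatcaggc
Calr (chr8:84847063-84847105, strand -, positions -174 to -132): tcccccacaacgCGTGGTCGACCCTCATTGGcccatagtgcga
Canx (chr11:50325788-50325830, strand -, positions -157 to -115): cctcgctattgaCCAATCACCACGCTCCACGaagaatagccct
Pdia6 (chr12:17266479-17266521, strand +, positions -110 to -68): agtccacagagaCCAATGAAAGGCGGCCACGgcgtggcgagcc
Syvn1 (chr19:6046520-6046562, strand +, positions -56 to -14): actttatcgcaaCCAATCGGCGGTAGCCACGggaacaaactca
Herpud1 (chr8:94386365-94386399, strand +, positions -64 to -30): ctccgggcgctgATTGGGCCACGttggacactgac
Hspd1 (chr1:55088047-55088088, strand -, positions -156 to -115): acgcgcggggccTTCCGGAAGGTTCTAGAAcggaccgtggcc

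Microglia and the ACSA2+ astrocyte sort expressed the 33 genes at different levels. Most ER genes were higher in microglia, while the cytosolic heat-shock genes differed in either direction. Over the 10 pairs of groups of the same genotype and age, 20 of 31 genes tested were called higher in microglia and 3 lower, where 32.9% of all genes tested were called higher and 36.8% lower. The members of the ER Hsp70 and Hsp90 system summed to 719.7 to 1364 FPKM in the microglia groups and 364 to 542 FPKM in the astrocyte groups, ranges that did not overlap. The lectin chaperones and disulfide isomerases summed to 834 to 1894 and 449 to 740.4 FPKM. The cytosolic heat-shock genes summed to 632 to 1712 FPKM in microglia and 924 to 1867 FPKM in astrocytes, ranges that overlapped.

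The order of levels differed between the populations. In microglia the highest means over the 10 groups were those of Pdia3, the disulfide isomerase that works with the lectin chaperones, at 491 FPKM, of Calr, the luminal lectin chaperone, at 464 FPKM, and of Hspa8, the constitutive Hsp70, at 316 FPKM. Hspa1b, an inducible Hsp70, and Hspa5, which encodes BiP, followed at 306 and 306 FPKM. These neighbours overlapped in their ranges over the groups, Pdia3 running from 317 to 633 FPKM and Calr from 226 to 728 FPKM. In astrocytes Hsp90aa1, the inducible cytosolic Hsp90, led at 655 FPKM, followed by Hspa8 at 360.1 FPKM and the small heat-shock protein Hspb1 at 240.2 FPKM. At the lower end stood Hyou1, the exchange factor of BiP, at 4.57 FPKM in microglia and 3.02 FPKM in astrocytes.

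Edem1, a lectin that hands misfolded glycoproteins to degradation, stood at 24.4 to 37.5 FPKM in the microglia groups and 3.53 to 4.21 FPKM in the astrocyte groups (log2 fold change 3.01 ± 0.03 (SE), adjusted p = 5.94e-46). The inducible Hsp70 genes Hspa1b (log2 fold change 2.88 ± 0.10 (SE), adjusted p = 1.21e-27) and Hspa1a (2.82) were higher in microglia in every pair of groups. Sdf2l1, the partner of the co-chaperone Dnajb11, was higher by 2.51 and Herpud1, a membrane component of ER-associated degradation, by 1.87 on the log2 scale. The other genes called higher in microglia were Pdia3 (1.49), Pdia6 (1.35), Calr (1.21), Xbp1 (1.18), Hspa5 (1.13), Manf (1.09), Hsp90b1 (1.03), Dnajb11 (0.92), Creld2 (0.85), Atf4 (0.81), Canx (0.80), Dnajb1 (0.56), P4hb (0.55), Hyou1 (0.53) and Pdia4 (0.52). Hspb1 was lower in microglia in each of the 10 pairs (log2 fold change -2.62 ± 0.13 (SE), adjusted p = 1.78e-21), as was Hsph1, the Hsp110 exchange factor of cytosolic Hsp70 (-1.25), and Hspd1, the mitochondrial Hsp60, was called lower over the pairs (-0.59). Hsp90aa1 could be tested in 6 pairs only and was lower in microglia in all 6, at 94.3 to 288 FPKM against 426 to 780.3 FPKM.

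**Figure D1:**
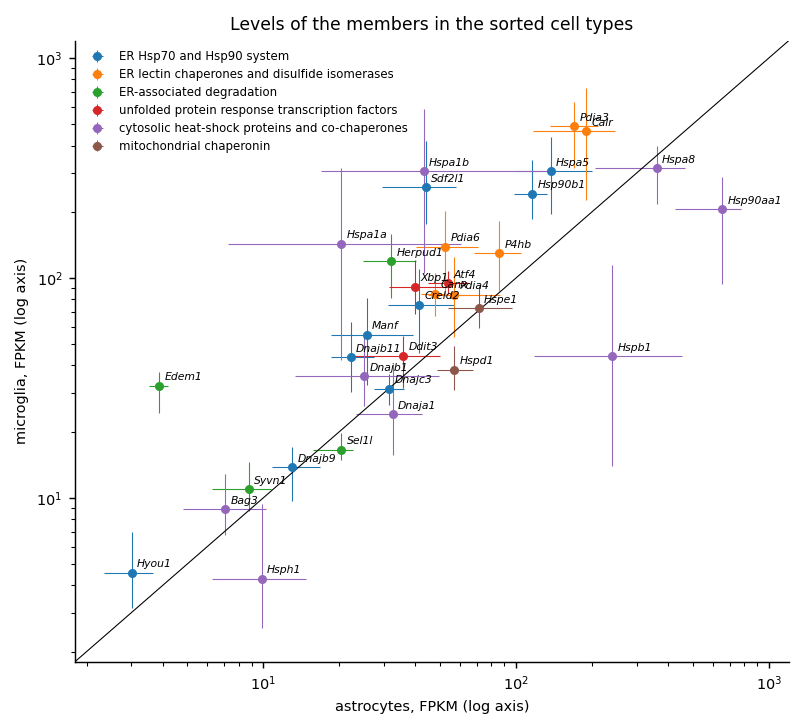
Mean level of each of the 33 genes over the 10 groups of microglia (vertical axis) and of astrocytes (horizontal axis), in FPKM on log axes; bars run from the lowest to the highest group and the diagonal marks equal levels. Hspa1a, Hspa1b, Edem1 and Sdf2l1 lie above the diagonal and Hsp90aa1, Hspb1 and Hsph1 below it.

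In WT microglia most of the ER chaperones stood highest at 6 months, when Hspa1a, Hspa1b and Hsp90aa1 stood lowest. Hspa5 was at 309, 259.9, 438, 211 and 312 FPKM in WT and 331, 218, 374, 196 and 413 FPKM in AD microglia. Its libraries held 421, 464 and 429 FPKM in WT at 6 months, against 253, 269 and 405 FPKM at 2 months, 284, 276 and 219.6 FPKM at 4 months and 203, 232 and 197 FPKM at 9 months. Against the average of the other 4 ages, Hspa5 was higher at 6 months (log2 fold change 0.69 ± 0.14 (SE), adjusted p = 2.42e-04), a change that shrank to 0.24 and was not called when the libraries were forced to one distribution by quantile normalization.

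The genes that work with BiP followed a like course. Sdf2l1 was at 267, 203, 351, 188 and 203 FPKM in WT and 282, 179.6, 311, 177 and 420.0 FPKM in AD microglia, with WT libraries of 326, 376 and 350.4 FPKM at 6 months and 194, 166 and 206 FPKM at 9 months. Manf, an ER-stress-induced luminal and secreted protein, was at 61.2, 49.2, 81.1, 44.9 and 43.5 FPKM in WT and 61.7, 38.7, 68.0, 32.7 and 71.4 FPKM in AD microglia. In both, the highest WT group was that of 6 months. The J-domain co-chaperone Dnajb11 was at 47.1, 36.3, 63.4, 36.1 and 38.0 FPKM in WT and 50.0001, 30.2, 49.4, 30.3 and 54.7 FPKM in AD microglia. Creld2, another ER-stress-induced luminal protein, was at 78.9, 72.0, 109, 63.1 and 76.9 FPKM in WT and 76.2, 60.6, 84.2, 45.8 and 89.8 FPKM in AD microglia. Hyou1 was at 4.67, 4.16, 6.46, 4.01 and 3.91 FPKM in WT and 6.999, 3.94, 3.99, 3.15 and 4.38 FPKM in AD microglia. All 3 peaked at 6 months in WT, while in AD the highest group was that of 12 months for Dnajb11 and Creld2 and that of 2 months for Hyou1. Hsp90b1, the ER Hsp90 Grp94, ran from 185 to 345 FPKM over the 10 groups, the co-chaperone Dnajc3 from 26.4 to 36.5 FPKM and the co-chaperone Dnajb9 from 9.63 to 17.0 FPKM.

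Calr was at 728, 419, 655, 269 and 295 FPKM in WT and 667, 305, 522, 226 and 554 FPKM in AD microglia. Its course differed from that of Hspa5 in that 2 and 6 months were both high. The WT libraries held 578, 716 and 889.6 FPKM at 2 months, 621, 699 and 644 FPKM at 6 months, 267, 257 and 282 FPKM at 9 months and 272 and 319 FPKM at 12 months. The libraries of 9 and 12 months lay below all those of 2 and 6 months. Calr also moved against Canx, its membrane-bound relative, within the same libraries. Dividing a library by a single factor cannot alter the log2 ratio of Calr to Canx, while quantile normalization can. The ratio was 2.76, 2.40, 2.74, 1.92 and 2.03 in WT and 2.66, 2.12, 2.55, 1.76 and 2.59 in AD microglia. At 12 months its libraries stood at 2.02 and 2.05 in WT and 2.503, 2.58 and 2.69 in AD, without overlap. Canx itself ran from 66.9 to 106 FPKM.

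The disulfide isomerases were lower at 4 months than at 2 and 6 months in both genotypes. Pdia3 was at 574, 511, 633, 377 and 377 FPKM in WT and 588, 374, 571, 317 and 584 FPKM in AD microglia. Pdia4 was at 98.6, 68.7, 125, 63.9 and 66.1 FPKM in WT and 102, 59.2, 100.5, 53.9 and 103 FPKM in AD microglia, and Pdia6 at 172, 119.8, 202, 108 and 105 FPKM in WT and 168, 102, 167, 82.5 and 164 FPKM in AD microglia. P4hb, the founding member of the isomerase family, was at 149, 102, 181, 106 and 96.6 FPKM in WT and 150.2, 90.2, 163, 87.2 and 172 FPKM in AD microglia. In each of the 4 the highest WT group was that of 6 months, and the AD groups of 4 and 9 months were the lowest of AD. Of the degradation genes, Herpud1 was at 102, 92.5, 153, 112 and 136 FPKM in WT and 115, 104, 139, 81.3 and 158 FPKM in AD microglia, and was lower in AD at 9 months than in any other group. Sel1l, the adaptor of the ubiquitin ligase, ran from 14.8 to 19.7 FPKM, the ligase Syvn1 from 8.70 to 14.6 FPKM and Edem1 from 24.4 to 37.5 FPKM.

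Of the 3 transcription factors, Ddit3 alone was called in a comparison of ages in microglia. Xbp1, whose messenger is spliced by the sensor Ire1, was at 86.4, 82.6, 120.1, 82.5 and 90.1 FPKM in WT and 90.7, 73.4, 112, 68.5 and 106 FPKM in AD microglia, a value that cannot separate the spliced from the unspliced form. Its libraries at 6 months in WT held 114, 124 and 123 FPKM, and the difference from the other 4 ages lay just under the fold threshold (log2 fold change 0.47 ± 0.09 (SE), adjusted p = 1.00e-04). Atf4, which is controlled mainly in translation, was at 92.2, 84.7, 102, 101 and 85.3 FPKM in WT and 89.95, 96.5, 91.0, 107 and 98.5 FPKM in AD microglia. Ddit3, which encodes CHOP, was at 36.6, 39.7, 45.3, 43.4 and 54.5 FPKM in WT and 31.5, 48.8, 41.8, 51.3 and 50.6 FPKM in AD microglia. In both genotypes its lowest group was that of 2 months, with libraries of 33.3, 41.6 and 34.9 FPKM in WT and 27.9, 28.7 and 38.1 FPKM in AD.

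**Figure D2:**
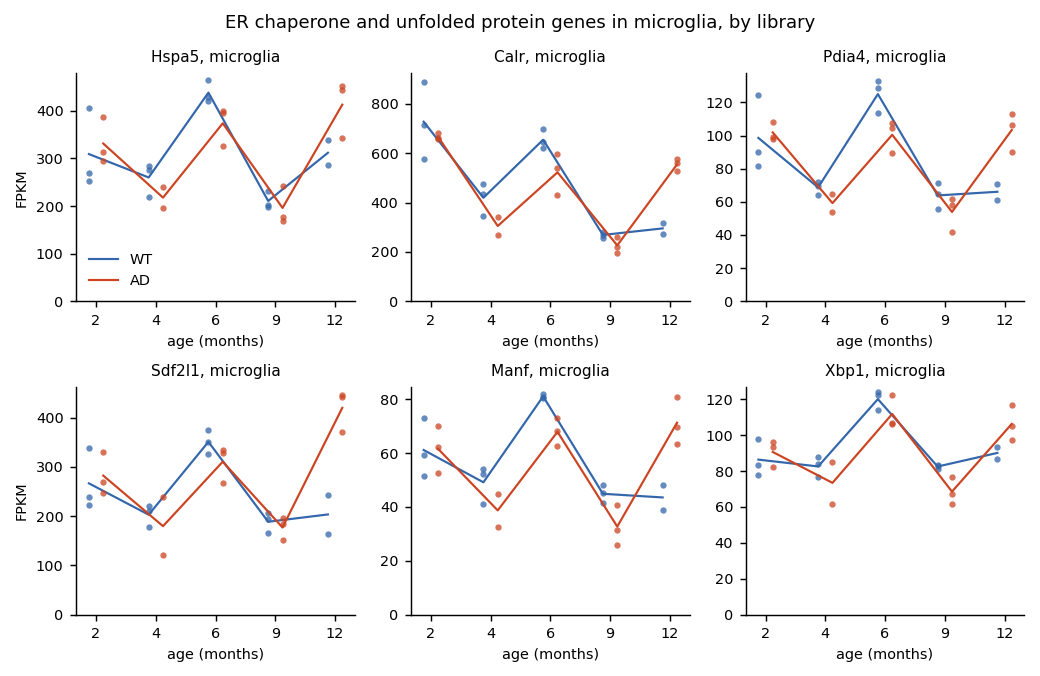
Levels of 6 ER genes in microglia at each age, in FPKM; points are single libraries, lines join the group means, and ages are evenly spaced. In WT microglia all 6 but Calr were highest at 6 months. At 12 months the AD means of all 6 lay above the WT means, a difference called for Calr, Pdia4, Sdf2l1 and Manf only.

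The inducible Hsp70 genes ran the other way at 6 months. Hspa1a was at 317, 148, 74.2, 97.5 and 222 FPKM in WT and 188, 139.7, 42.5, 122 and 78.3 FPKM in AD microglia. Hspa1b was at 585, 373, 157, 198 and 504 FPKM in WT and 373, 319.6, 105, 253 and 196 FPKM in AD microglia. These neighbouring genes are near-identical copies, so the division of reads between them is uncertain, and Hspa1b held 60.0 to 80.4% of their sum in every library. Summed, the libraries held 1239.5, 852 and 615 FPKM at 2 months, 225, 323 and 145 FPKM at 6 months and 764 and 688 FPKM at 12 months in WT, and 197, 152 and 94.2 FPKM at 6 months and 136, 293 and 393 FPKM at 12 months in AD. The 6-month libraries of both genotypes lay below all those of WT at 2 and 12 months. The log2 ratio of Hspa5 to the summed Hsp70 genes, again unaltered by a single factor per library, was -1.52, -1.01, 0.998, -0.48 and -1.22 in WT and -0.70, -1.08, 1.40, -0.93 and 0.71 in AD. At 6 months every library of both genotypes lay above 0, so that Hspa5 exceeded the summed genes. At 12 months the libraries stood at -1.42 and -1.03 in WT and at 1.70, 0.62 and -0.19 in AD, where 1 of 3 lay below 0.

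Hsp90aa1 was at 279, 243, 126, 203 and 288 FPKM in WT and 205, 213, 94.3, 268 and 134 FPKM in AD microglia, with libraries of 143, 122 and 112 FPKM in WT and 107, 85.9 and 89.8 FPKM in AD at 6 months. Hsph1 was at 5.19, 3.97, 3.15, 2.57 and 9.39 FPKM in WT and 3.56, 3.47, 3.61, 3.89 and 3.99 FPKM in AD microglia, its WT libraries of 12 months holding 8.67 and 10.1 FPKM. Both were highest in WT at 12 months. The Hsp40 co-chaperone Dnajb1 was at 38.1, 26.1, 44.6, 28.8 and 55.4 FPKM in WT and 27.0, 37.2, 35.7, 27.8 and 37.1 FPKM in AD microglia. Dnaja1, another Hsp40, was at 23.2, 19.0, 24.7, 17.99 and 40.8 FPKM in WT and 15.7, 21.0, 29.5, 17.3 and 30.8 FPKM in AD microglia. Neither shared the low point of 6 months. Hspb1 was at 56.1, 45.7, 27.3, 23.9996 and 52.9 FPKM in WT and 51.4, 115, 14.0, 31.9 and 22.6 FPKM in AD microglia. Its 2 libraries of AD at 4 months held 197 and 32.4 FPKM, beside 733 and 9.74 FPKM for the sum of 8 of 9 endothelial markers. The 9 markers summed in the other 9 microglia groups to 7.69 to 84.6 FPKM, and in this group to 377 FPKM, and their part in Hspb1 was not tested. Hspa8 ran from 217 to 397 FPKM, the Hsp70 co-chaperone Bag3 from 6.81 to 12.8 FPKM, and the mitochondrial chaperonin genes Hspd1 and Hspe1 from 30.9 to 49.2 FPKM and 59.2 to 92.2 FPKM.

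**Figure D3:**
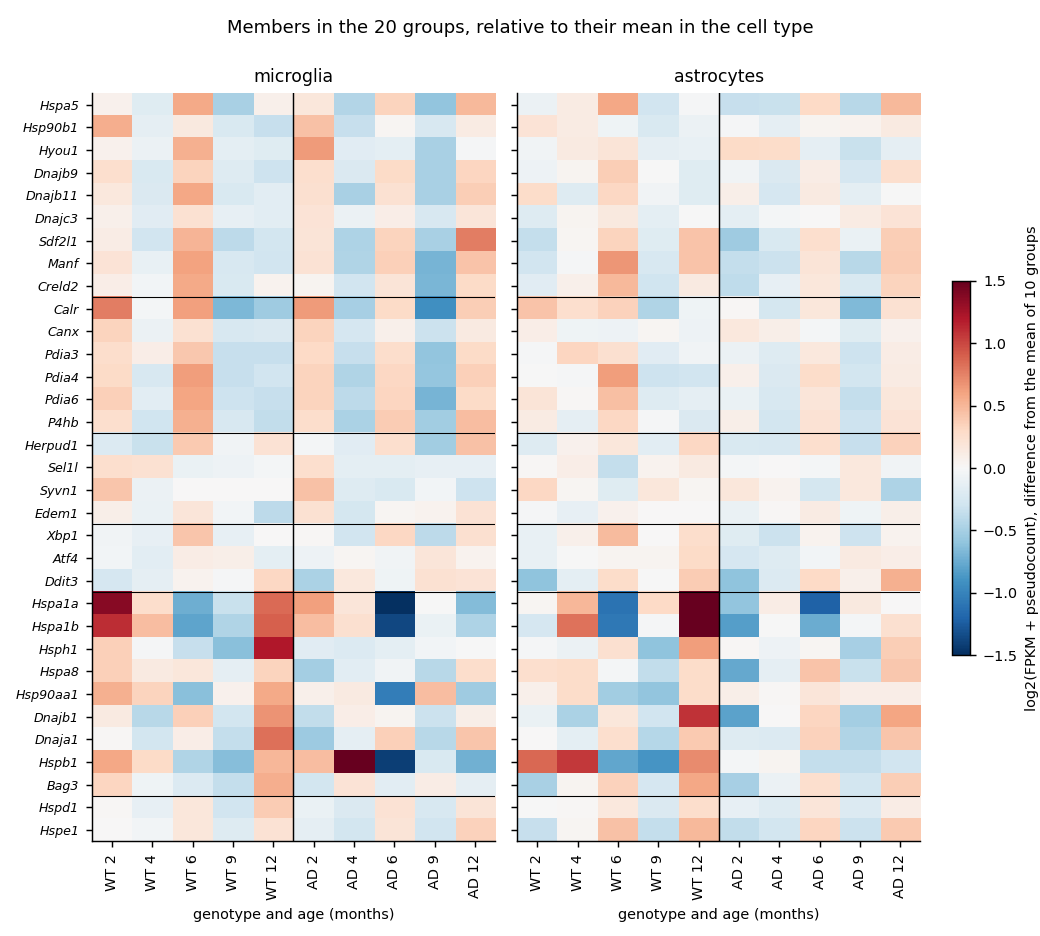
Level of each of the 33 genes in each of the 20 groups as log2(FPKM + 0.1) minus the mean of the 10 groups of that cell type; rows are genes in the order of their roles, separated by lines, columns are genotypes and ages, and colours end at 1.5 in either direction. In WT microglia the ER rows are high at 6 months where Hspa1a, Hspa1b and Hsp90aa1 are low.

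Against the average of the other 4 ages, 10 of 32 genes tested were called higher at 6 months in WT microglia and 4 lower, while 17% of all genes tested were called higher and 25.5% lower. The age of 6 months was set apart because the study describes genes that peak or dip there. That description came from these same data, so the age was not picked without sight of them. The higher genes were Pdia4 (0.76), Calr (0.72), Sdf2l1 (0.71), Manf (0.71), Pdia6 (0.70), Hspa5 (0.69), P4hb (0.68), Dnajb11 (0.67), Hyou1 (0.63) and Creld2 (0.59), and the lower ones Hspa1b (-1.37), Hspa1a (-1.35), Hsp90aa1 (-1.01) and Hsph1 (-0.59). By role, 6 of 9 genes of the ER Hsp70 and Hsp90 system and 4 of 6 lectin chaperones and isomerases were called higher, 4 of 9 cytosolic genes were called lower, and none of 3 degradation genes or 3 transcription factors was called. The median of the members was 0.28, against -0.02 for all genes. The lowest adjusted p by limma of the 32 genes was that of P4hb (log2 fold change 0.68, adjusted p = 1.10e-05). Pdia4 (log2 fold change 0.76 ± 0.12 (SE), adjusted p = 1.80e-05) and Calr (log2 fold change 0.72 ± 0.12 (SE), adjusted p = 4.72e-05) were also among the higher genes, and Hsp90aa1 (log2 fold change -1.01 ± 0.16 (SE), adjusted p = 1.43e-05) among the lower. The split depended on scaling. It was 1 higher and 4 lower under quantile normalization, 6 higher and 5 lower with size factors drawn from genes with 1 FPKM or more, where the median of all genes moved by -0.17, and 5 higher and 5 lower with a trend in transcript length removed. The calls of Hsph1 (-0.43, WT 6-month library c) and Hyou1 (0.55, 3 libraries) were lost in some fits with 1 library left out. Here and below, the value in brackets beside such a gene is the smallest change in those fits, with the library whose absence removed the call, or the number of such libraries above 2.

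In AD microglia 1 of 33 genes was called higher at 6 months, Dnaja1 (log2 fold change 0.52 ± 0.10 (SE), adjusted p = 4.81e-04), and 4 lower, Hspa1a (-1.57), Hspb1 (-1.55), Hspa1b (-1.41) and Hsp90aa1 (-1.07), while 8.26% of all genes tested were called higher and 17.2% lower. With quantile normalization or the other size factors the split was 0 higher and 4 lower. Hspa5 (0.43) and Sdf2l1 (0.34) did not pass in AD, where their changes lay under the fold threshold of 0.5. The average of the other 4 ages there includes 12 months, when these genes stood higher than at 6 months. Whether this contrast differed between the genotypes was not tested. The call of Dnaja1 (0.46, 5 libraries) was lost in some fits with 1 library left out. Beside these values, 12 immediate-early genes, which also rise on dissociation, summed to 3340.4, 5334, 6136, 6249.8 and 7213 FPKM in WT and 4494, 7475, 3717, 6473 and 4972 FPKM in AD microglia. At 6 months 5 of 10 were called higher and 2 lower in WT, and 8 of 10 lower in AD, so that in WT they did not fall with Hspa1a and Hspa1b and in AD they did. Their part in the heat-shock genes was not tested.

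Against 2 months, ER chaperones led by Calr and Hsp90b1 were called lower in WT microglia at 4, 9 and 12 months. These 4 comparisons, and those of the other populations, each share their 2-month libraries. At 4 months 0 of 33 genes were called higher and 4 lower, Calr (-0.79), Hsp90b1 (-0.68), P4hb (-0.55) and Syvn1 (-0.50), while 1.55% of all genes tested were called higher and 1.13% lower. At 6 months 2 of 33 genes were called higher, Herpud1 (0.57) and Hspa5 (0.51), and 5 lower, Hspa1a (-2.15), Hspa1b (-1.93), Hsp90aa1 (-1.15), Hsph1 (-0.72) and Bag3 (-0.55), while 16.4% of all genes tested were called higher and 22.8% lower. Of the 33 genes, the largest changes of WT microglia with age were those of Hspa1a (log2 fold change -2.15 ± 0.37 (SE), adjusted p = 6.93e-05) and Hspa1b (log2 fold change -1.93 ± 0.37 (SE), adjusted p = 1.98e-04) at 6 months, where the libraries of both ages did not overlap. At 4 months the calls of Calr (-0.64, WT 4-month library b), P4hb (-0.43, 4 libraries) and Syvn1 (-0.45, 17 libraries) were lost in some fits with 1 library left out. At 6 months the calls of Bag3 (-0.43, WT 2-month library a or WT 6-month library c), Herpud1 (0.49, WT 6-month library b), Hspa5 (0.38, 3 libraries) and Hsph1 (-0.56, 3 libraries) were lost in some fits with 1 library left out. The split at 6 months was 0 higher and 12 lower under quantile normalization, where Hspa5 stood at -0.02 in place of 0.51, 0 higher and 9 lower with size factors drawn from genes with 1 FPKM or more and 0 higher and 7 lower with the length trend removed.

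At 9 months 0 of 32 genes were called higher and 10 lower, Hspa1a (-1.67), Hspa1b (-1.52), Calr (-1.42), Hsph1 (-0.97), Hsp90b1 (-0.78), Bag3 (-0.67), Pdia6 (-0.64), Pdia4 (-0.61), Pdia3 (-0.60) and Canx (-0.58), while 2.73% of all genes tested were called higher and 1.39% lower. At 12 months 1 of 33 genes was called higher, Dnaja1 (0.81), and 7 lower, Calr (-1.28), Hsp90b1 (-0.89), Pdia6 (-0.68), P4hb (-0.62), Dnajb9 (-0.56), Pdia4 (-0.56) and Canx (-0.55), while 3.83% of all genes tested were called higher and 3.5% lower. Calr fell at 4, 9 and 12 months (log2 fold change -1.28 ± 0.17 (SE), adjusted p = 1.85e-04 at 12 months), as did Hsp90b1 (log2 fold change -0.89 ± 0.12 (SE), adjusted p = 2.62e-04 at 12 months), and the libraries of Calr at 12 and 2 months did not overlap. Hspa1a, at -1.67 on the log2 scale at 9 months, was not called at 12 months (-0.46). The split at 9 months was 0 higher and 6 lower with no filter on low values. The calls of Bag3 (-0.55, 4 libraries), Hspa1a (-1.41, WT 2-month library a or WT 9-month library c), Hspa1b (-1.26, WT 2-month library a or WT 9-month library c), Hsph1 (-0.87, 5 libraries), Pdia3 (-0.42, 4 libraries), Pdia4 (-0.43, WT 2-month library c or WT 9-month library b) and Pdia6 (-0.43, 20 libraries) were lost in some fits with 1 library left out. At 12 months the calls of Canx (-0.45, WT 12-month library a), Dnajb9 (-0.46, WT 2-month library c or WT 12-month library a), P4hb (-0.50, 3 libraries), Pdia4 (-0.37, 4 libraries) and Pdia6 (-0.47, 20 libraries) were lost in some fits with 1 library left out.

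In AD microglia ER chaperones were called lower at 4 and 9 months, and at 12 months Syvn1 was the only ER gene called lower. At 4 months 1 of 33 genes was called higher, Ddit3 (0.67), and 10 lower, Calr (-1.10), Hsp90b1 (-0.75), Pdia4 (-0.75), Pdia6 (-0.72), P4hb (-0.71), Dnajb11 (-0.69), Pdia3 (-0.64), Manf (-0.64), Syvn1 (-0.59) and Canx (-0.55), while 2.64% of all genes tested were called higher and 2.97% lower. At 6 months 1 of 33 genes was called higher, Dnaja1 (0.90), and 6 lower, Hspa1a (-2.14), Hspa1b (-1.83), Hspb1 (-1.81), Hsp90aa1 (-1.12), Hyou1 (-0.84) and Syvn1 (-0.67), while 13.3% of all genes tested were called higher and 17.6% lower. The 4-month group holds 2 libraries, and Calr stood at 269.9 and 340.0 FPKM in them against 681, 659 and 662 FPKM at 2 months (log2 fold change -1.10 ± 0.17 (SE), adjusted p = 0.00251). Of all microglia groups, the 4-month group of AD had the highest sums of endothelial (377 FPKM), mural (205 FPKM), astrocyte (46.0 FPKM), oligodendrocyte (123 FPKM) and choroid plexus markers (5646 FPKM), and its 8 microglia markers summed to 12834 FPKM in library a and 19558 FPKM in library b. Their part in the falls was not tested. The calls of Canx (-0.48, AD 4-month library a), Ddit3 (0.54, 9 libraries), Dnajb11 (-0.56, AD 2-month library b or AD 4-month library a), Manf (-0.44, 3 libraries), P4hb (-0.53, AD 4-month library a), Pdia3 (-0.36, 4 libraries), Pdia4 (-0.65, AD 4-month library a), Pdia6 (-0.41, 5 libraries) and Syvn1 (-0.54, 3 libraries) were lost in some fits with 1 library left out. With the length trend removed the split at 4 months was 2 higher and 7 lower. At 6 months the call of Hyou1 (-0.61, 4 libraries) was lost in some fits with 1 library left out.

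At 9 months 1 of 33 genes was called higher, Ddit3 (0.64), and 16 lower, Calr (-1.60), Hyou1 (-1.13), Pdia6 (-1.09), Pdia4 (-0.97), Manf (-0.96), Pdia3 (-0.93), P4hb (-0.83), Hspa5 (-0.80), Creld2 (-0.79), Dnajb11 (-0.79), Dnajb9 (-0.78), Hsp90b1 (-0.73), Sdf2l1 (-0.71), Canx (-0.70), Herpud1 (-0.54) and Syvn1 (-0.53), while 11.8% of all genes tested were called higher and 7.22% lower. Calr libraries held 197, 221 and 262 FPKM at that age (log2 fold change -1.60 ± 0.15 (SE), adjusted p = 7.08e-06). Those of Hspa5 held 178, 169 and 241 FPKM against 313, 386 and 295 FPKM at 2 months (log2 fold change -0.80 ± 0.17 (SE), adjusted p = 0.00223). All of the lower genes belonged to the 19 genes of the 3 ER roles, and no cytosolic gene was called. In this group 8 neutrophil markers summed to 2749 FPKM, against 47.9 FPKM in AD at 2 months, and 8 microglia markers to 10939 FPKM against 26557 FPKM, and their part in these falls was not tested. The split was 1 higher and 10 lower under quantile normalization. The calls of Ddit3 (0.44, AD 9-month library a), Herpud1 (-0.39, AD 2-month library b or AD 9-month library b), Hyou1 (-0.94, AD 2-month library b), Sdf2l1 (-0.58, AD 2-month library b or AD 9-month library a) and Syvn1 (-0.46, AD 9-month library b or AD 9-month library c) were lost in some fits with 1 library left out.

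At 12 months 4 of 33 genes were called higher, Dnaja1 (0.97), Hspa8 (0.76), Ddit3 (0.69) and Sdf2l1 (0.58). Another 4 were called lower, Hspa1a (-1.31), Hspa1b (-0.99), Syvn1 (-0.75) and Hsp90aa1 (-0.60), while 16.5% of all genes tested were called higher and 17.7% lower. Sdf2l1 rose, with libraries of 372, 441 and 447 FPKM against 247, 331 and 269.6 FPKM at 2 months (log2 fold change 0.58 ± 0.21 (SE), adjusted p = 0.0255). Hspa8 rose from 208, 227 and 217 FPKM to 289, 407 and 417 FPKM (log2 fold change 0.76 ± 0.20 (SE), adjusted p = 0.00455). Hspa1a and Hspa1b were lower together. The split at 12 months was 1 higher and 8 lower under quantile normalization and 2 higher and 5 lower with the length trend removed. The calls of Hsp90aa1 (-0.48, 3 libraries), Hspa1a (-0.87, AD 12-month library a), Hspa1b (-0.54, 3 libraries) and Sdf2l1 (0.48, 4 libraries) were lost in some fits with 1 library left out.

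In astrocytes Hspa5 and Manf stood highest at 6 months in WT and at 12 months in AD, and the ER genes did not share 1 course. Hspa5 was at 125, 145, 199, 109 and 132 FPKM in WT and 105, 106, 164, 100.05 and 187 FPKM in AD astrocytes. Its libraries held 181, 202 and 215 FPKM in WT at 6 months and 110.3, 128 and 157 FPKM at 12 months, against 173, 169 and 219 FPKM in AD at 12 months. Manf was at 20.3, 24.5, 39.2, 20.9 and 33.3 FPKM in WT and 19.3, 19.8, 28.4, 18.6 and 32.2 FPKM in AD astrocytes. Calr was at 247, 219, 234, 135 and 177 FPKM in WT and 186, 153, 207, 117 and 216 FPKM in AD astrocytes, lowest at 9 months in both genotypes and highest at 2 months in WT. Pdia4 was at 55.7, 55.1, 86.4, 45.0 and 45.7 FPKM in WT and 58.7, 47.9, 67.4, 45.9 and 60.8 FPKM in AD astrocytes. Its highest group was that of 6 months in both genotypes. The other ER chaperones are given by their range over the 10 groups. Pdia3 ran from 136 to 211 FPKM, Hsp90b1 from 97.9 to 133 FPKM and P4hb from 68.3 to 105 FPKM. Sdf2l1 ran from 29.5 to 58.0 FPKM, Creld2 from 31.2 to 56.8 FPKM and Pdia6 from 40.2 to 70.9 FPKM. Canx ran from 42.0 to 53.1 FPKM, Dnajc3 from 27.4 to 36.0 FPKM, Dnajb11 from 18.5 to 27.4 FPKM, Dnajb9 from 10.8 to 16.8 FPKM and Hyou1 from 2.35 to 3.67 FPKM. Of the degradation genes, Herpud1 ran from 24.8 to 40.1 FPKM, Sel1l, lowest in WT at 6 months, from 15.8 to 22.7 FPKM, Syvn1 from 6.26 to 10.7 FPKM and Edem1 from 3.53 to 4.21 FPKM.

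Of the transcription factors in astrocytes, Xbp1 was at 36.5, 41.6, 55.0, 39.5 and 47.2 FPKM in WT and 34.8, 31.6, 40.9, 31.9 and 40.8 FPKM in AD astrocytes. Atf4 was at 49.4, 53.3, 55.1, 55.3 and 65.5 FPKM in WT and 45.0, 46.8, 52.1, 58.6 and 57.3 FPKM in AD astrocytes. Ddit3 was at 22.7, 31.3, 41.9, 34.4 and 45.2 FPKM in WT and 22.8, 29.9, 42.8, 36.5 and 50.3 FPKM in AD astrocytes, lowest at 2 months and highest at 12 months in both genotypes. Its libraries held 20.9, 22.8 and 24.3 FPKM at 2 months and 36.6, 54.6 and 44.5 FPKM at 12 months in WT, and 20.3, 23.0 and 25.2 FPKM and 42.1, 52.1 and 56.6 FPKM in AD, without overlap between the ages.

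The inducible Hsp70 genes of astrocytes peaked at 12 months in WT. Hspa1a was at 17.4, 24.2, 7.82, 21.0 and 60.6 FPKM in WT and 11.3, 18.4, 7.27, 18.9 and 17.1 FPKM in AD astrocytes. Hspa1b was at 29.8, 62.9, 16.8, 35.3 and 132 FPKM in WT and 20.1, 35.4, 21.3, 35.0 and 42.2 FPKM in AD astrocytes. Summed, the libraries of 12 months held 225, 151 and 203 FPKM in WT and 56.0, 52.4 and 69.6 FPKM in AD, and those of 2 months 44.0, 48.7 and 49.0 FPKM in WT and 33.05, 32.0 and 29.1 FPKM in AD. All 3 WT libraries of 12 months lay above every library of the other 3 groups. Dnajb1 was at 21.7, 16.7, 26.2, 19.2 and 49.6 FPKM in WT and 13.3, 23.4, 29.2, 16.3 and 35.1 FPKM in AD astrocytes. Bag3 was at 4.88, 7.06, 8.76, 5.72 and 10.3 FPKM in WT and 4.82, 6.46, 8.17, 5.66 and 8.87 FPKM in AD astrocytes. Hsph1 was at 9.44, 9.03, 11.3, 6.25 and 14.8 FPKM in WT and 9.72, 9.05, 9.81, 6.73 and 12.4 FPKM in AD astrocytes. Each of the 3 was highest in WT at 12 months.

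Hspa8 was at 416, 421, 342, 269.6 and 422 FPKM in WT and 205, 317, 467, 278 and 463 FPKM in AD astrocytes, its libraries in AD at 2 months holding 195, 220.1 and 200.1 FPKM against 446, 409 and 393 FPKM in WT. Hsp90aa1 was at 679, 780.3, 449, 426 and 779.6 FPKM in WT and 684, 652, 727, 689 and 687 FPKM in AD astrocytes. Hspb1 was at 394, 453, 127, 118 and 356 FPKM in WT and 213, 223, 169.9, 169 and 179 FPKM in AD astrocytes. The WT libraries held 396, 251 and 535 FPKM at 2 months, 144, 128 and 108 FPKM at 6 months and 322, 377 and 369 FPKM at 12 months. The 9 endothelial markers summed to 1713, 2133, 432, 576 and 813 FPKM in WT and 1179, 1021, 561, 539 and 313 FPKM in AD astrocytes, and their part in the levels of Hspb1 was not tested. Dnaja1 ran from 23.2 to 42.3 FPKM, Hspd1 from 48.6 to 67.9 FPKM and Hspe1 from 53.7 to 96.6 FPKM.

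**Figure D4:**
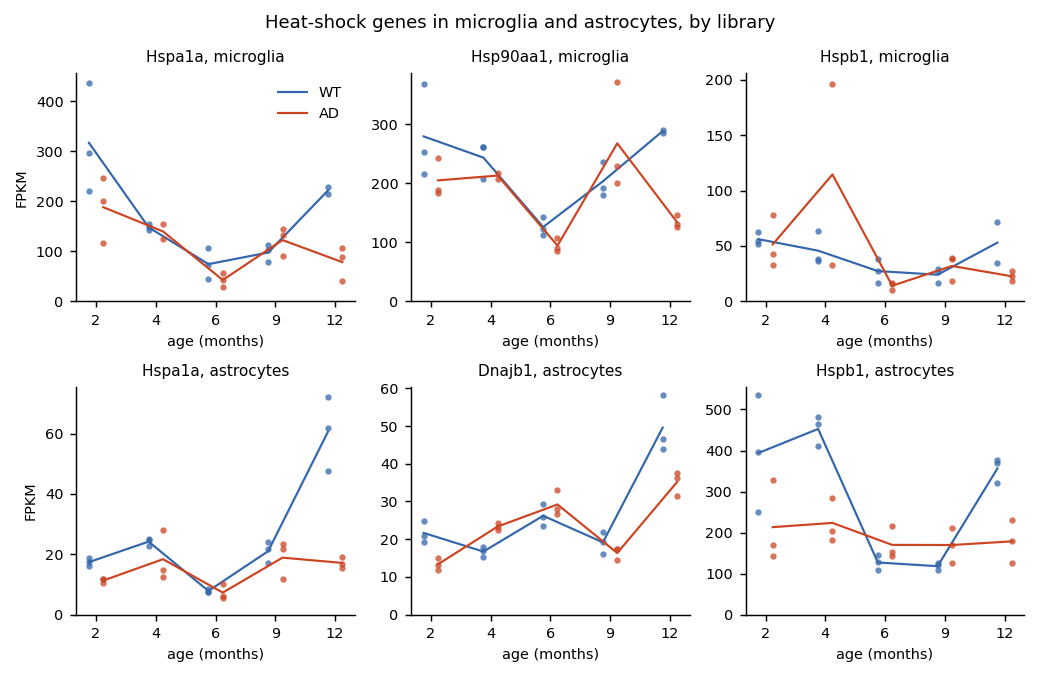
Levels of heat-shock genes at each age, in FPKM: Hspa1a, Hsp90aa1 and Hspb1 in microglia and Hspa1a, Dnajb1 and Hspb1 in astrocytes; points are single libraries, lines join the group means, and ages are evenly spaced. Hspa1a was lowest at 6 months in both cell types and genotypes, and at 12 months its WT means, 222 FPKM in microglia and 60.6 FPKM in astrocytes, lay above the AD means of 78.3 and 17.1 FPKM.

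Against the average of the other 4 ages, at 6 months in WT astrocytes, 6 of 32 genes were called higher, Pdia4 (0.81), Manf (0.73), Hspa5 (0.68), Creld2 (0.58), Pdia6 (0.51) and Hspe1 (0.51). Another 3 were called lower, Hspa1a (-1.75), Hspa1b (-1.66) and Hspb1 (-1.18), while 18.1% of all genes tested were called higher and 23% lower. Hspa5 was higher (log2 fold change 0.68 ± 0.12 (SE), adjusted p = 3.64e-05) and Hspa1a lower (log2 fold change -1.75 ± 0.20 (SE), adjusted p = 1.95e-07), and the change of Hspa5 was 0.39 and not called under quantile normalization. The split became 0 higher and 4 lower under quantile normalization and 3 higher and 4 lower with size factors drawn from genes with 1 FPKM or more, where the median of all genes moved by -0.11. The calls of Hspe1 (0.48, 4 libraries) and Pdia6 (0.47, 5 libraries) were lost in some fits with 1 library left out. Of all astrocyte groups, WT at 6 months had the highest sum of astrocyte markers (641 FPKM) and the lowest of oligodendrocyte markers (12321 FPKM). WT at 2 months had the lowest sum of astrocyte markers (377 FPKM) and the highest of oligodendrocyte markers (20649 FPKM). Their part in the results at 6 months was not tested. In AD astrocytes 2 of 32 genes were called higher, Hspa8 (0.68) and Dnajb1 (0.53), and 2 lower, Hspa1a (-1.11) and Hspa1b (-0.53), while 5.5% of all genes tested were called higher and 10.6% lower. There the split became 0 higher and 2 lower under quantile normalization and 1 higher and 2 lower with the other size factors. The calls of Dnajb1 (0.43, AD 6-month library c), Hspa1b (-0.45, 3 libraries) and Hspa8 (0.60, AD 6-month library b) were lost in some fits with 1 library left out.

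Against 2 months, Hspa1a and Hspa1b of WT astrocytes were called lower at 6 months and higher at 12 months. At 4 months 2 of 32 genes were called higher, Hspa1b (1.07) and Bag3 (0.53), and 0 lower, while 4.53% of all genes tested were called higher and 3.38% lower. At 6 months 9 of 32 genes were called higher, Manf (0.97), Ddit3 (0.90), Bag3 (0.84), Hspe1 (0.80), Sdf2l1 (0.74), Creld2 (0.70), Hspa5 (0.69), Pdia4 (0.65) and Xbp1 (0.63). Another 3 were called lower, Hspb1 (-1.56), Hspa1a (-1.13) and Hspa1b (-0.81), while 22.9% of all genes tested were called higher and 24.1% lower. At 9 months 1 of 32 genes was called higher, Ddit3 (0.58), and 3 lower, Hspb1 (-1.69), Calr (-0.87) and Hsph1 (-0.61), while 5.49% of all genes tested were called higher and 6.77% lower. At 12 months 9 of 32 genes were called higher, Hspa1b (2.12), Hspa1a (1.77), Dnajb1 (1.18), Bag3 (1.05), Ddit3 (0.97), Hspe1 (0.81), Sdf2l1 (0.74), Manf (0.66) and Hsph1 (0.63), and 0 lower, while 9.62% of all genes tested were called higher and 9.79% lower. At 12 months Hspa1b (log2 fold change 2.12 ± 0.22 (SE), adjusted p = 5.98e-07), Dnajb1 (log2 fold change 1.18 ± 0.13 (SE), adjusted p = 2.44e-06) and Ddit3 (log2 fold change 0.97 ± 0.14 (SE), adjusted p = 4.42e-05) rose together, and the libraries of Dnajb1 at 12 and 2 months did not overlap. Beside them, 9 of 12 immediate-early genes were called higher, and their part in these rises was not tested. The immediate-early genes summed to 411, 637, 463, 519.8 and 786 FPKM in WT and 451, 712, 462, 601 and 528 FPKM in AD astrocytes. The split at 6 months was 3 higher and 7 lower and that at 12 months 9 higher and 4 lower under quantile normalization. At 4 months the call of Bag3 (0.49, WT 2-month library a) was lost in some fits with 1 library left out. At 6 months the calls of Sdf2l1 (0.60, WT 2-month library a) and Xbp1 (0.45, WT 2-month library b) were lost in some fits with 1 library left out. At 9 months the call of Hsph1 (-0.52, 5 libraries) was lost in some fits with 1 library left out. At 12 months the calls of Hsph1 (0.56, 3 libraries), Manf (0.43, WT 12-month library b) and Sdf2l1 (0.45, 3 libraries) were lost in some fits with 1 library left out.

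In AD astrocytes the genes called higher at 6 and 12 months held members of the ER and of the cytosolic systems. At 4 months 2 of 32 genes were called higher, Dnajb1 (0.80) and Hspa1b (0.73), and 0 lower, while 2.56% of all genes tested were called higher and 1.76% lower. At 6 months 11 of 32 genes were called higher, Hspa8 (1.21), Dnajb1 (1.15), Ddit3 (0.92), Sdf2l1 (0.79), Bag3 (0.78), Hspe1 (0.71), Hspa5 (0.68), Manf (0.58), Creld2 (0.58), Dnaja1 (0.57) and Herpud1 (0.51), and 1 lower, Hspa1a (-0.64), while 11.5% of all genes tested were called higher and 13.5% lower. At 9 months 2 of 33 genes were called higher, Hspa1b (0.78) and Ddit3 (0.68), and 1 lower, Calr (-0.68), while 5.15% of all genes tested were called higher and 3.86% lower. At 12 months 12 of 33 genes were called higher, Dnajb1 (1.40), Hspa8 (1.15), Ddit3 (1.14), Hspa1b (1.07), Sdf2l1 (0.91), Bag3 (0.88), Hspa5 (0.84), Hspe1 (0.77), Manf (0.74), Creld2 (0.73), Dnaja1 (0.62) and Herpud1 (0.57), and 1 lower, Syvn1 (-0.63), while 12.9% of all genes tested were called higher and 13.9% lower. At that age Dnajb1 (log2 fold change 1.40 ± 0.13 (SE), adjusted p = 1.21e-07), Hspa8 (log2 fold change 1.15 ± 0.24 (SE), adjusted p = 5.58e-04) and Hspa5 (log2 fold change 0.84 ± 0.15 (SE), adjusted p = 1.40e-04) rose, and the libraries of Hspa5 at 12 and 2 months did not overlap. Hspa1a was not called at 12 months (0.60). The split at 6 months was 4 higher and 0 lower under quantile normalization and 7 higher and 1 lower with size factors drawn from genes with 1 FPKM or more or with the length trend removed. At 4 months the call of Hspa1b (0.42, 6 libraries) was lost in some fits with 1 library left out. At 6 months the calls of Creld2 (0.47, AD 2-month library c), Dnaja1 (0.47, AD 2-month library c or AD 6-month library c), Herpud1 (0.38, AD 2-month library c or AD 6-month library c), Hspa1a (-0.49, 20 libraries), Manf (0.52, AD 2-month library c) and Sdf2l1 (0.63, AD 6-month library b or AD 6-month library c) were lost in some fits with 1 library left out. At 9 months the call of Hspa1b (0.67, 3 libraries) was lost in some fits with 1 library left out. At 12 months the call of Herpud1 (0.44, AD 2-month library c or AD 12-month library c) was lost in some fits with 1 library left out.

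At 12 months the ER genes called between AD and WT microglia were higher in AD, and the cytosolic heat-shock genes called were lower. The share of the 33 genes called lower, 18.2%, was under that of all genes. Of 33 genes, 10 were called higher in AD, Sdf2l1 (1.07), Calr (0.91), P4hb (0.83), Manf (0.71), Pdia4 (0.64), Dnajb9 (0.63), Pdia3 (0.63), Pdia6 (0.63), Edem1 (0.61) and Dnajb11 (0.52). Another 6 were lower, Hspa1a (-1.62), Hspa1b (-1.496), Hsph1 (-1.23), Hsp90aa1 (-1.11), Bag3 (-0.70) and Dnajb1 (-0.57), while 16.7% of all genes tested were called higher and 20.9% lower. By role, 4 of 9 genes of the ER Hsp70 and Hsp90 system, 5 of 6 lectin chaperones and isomerases and 1 of 4 degradation genes were higher, 6 of 9 cytosolic genes were lower, and no transcription factor or mitochondrial chaperonin gene was called. The median of the members was 0.22, against -0.02 for all genes.

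Sdf2l1 stood at 372, 441 and 447 FPKM in the AD libraries and 243 and 164 FPKM in the WT libraries (log2 fold change 1.07 ± 0.23 (SE), adjusted p = 8.31e-04). Calr stood at 560.3, 528 and 575 FPKM in AD and 272 and 319 FPKM in WT (log2 fold change 0.91 ± 0.17 (SE), adjusted p = 2.58e-04). P4hb stood at 173, 181 and 163 FPKM in AD and 94.4 and 98.9 FPKM in WT (log2 fold change 0.83 ± 0.14 (SE), adjusted p = 1.05e-04). In all 3 the groups did not overlap, for which no share of all genes is given. Hspa5 itself, at 443, 452 and 343 FPKM in AD and 286 and 338 FPKM in WT, did not pass (log2 fold change 0.40 ± 0.19 (SE), adjusted p = 0.0976). Hspa1a stood at 39.5, 88.7 and 107 FPKM in AD and 229 and 215 FPKM in WT (log2 fold change -1.62 ± 0.41 (SE), adjusted p = 0.00299). Hsp90aa1 stood at 125, 130.5 and 146 FPKM in AD and 291 and 286 FPKM in WT (log2 fold change -1.11 ± 0.22 (SE), adjusted p = 3.97e-04). Hsph1 stood at 3.52, 3.52 and 4.94 FPKM in AD and 8.67 and 10.1 FPKM in WT (log2 fold change -1.23 ± 0.30 (SE), adjusted p = 0.00228). The groups of these heat-shock genes did not overlap either.

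The WT group of this comparison holds 2 libraries. Under quantile normalization the split was 3 higher and 9 lower and the median of the members -0.23 in place of 0.22, and with the length trend removed the split was 5 higher and 6 lower. The calls of Bag3 (-0.50, WT 12-month library b), Dnajb1 (-0.45, WT 12-month library b), Dnajb11 (0.48, 3 libraries), Manf (0.55, WT 12-month library b), Pdia3 (0.57, WT 12-month library b), Pdia4 (0.54, WT 12-month library a) and Pdia6 (0.46, WT 12-month library b or AD 12-month library b) were lost in some fits with 1 library left out. Beside these changes, 6 of 11 immediate-early genes were called lower in AD. The microglia markers summed to 25251 FPKM in AD and 14484 FPKM in WT, and 7 of the 8 neutrophil markers to 635, 3763 and 341 FPKM in the AD libraries and 604 and 190.1 FPKM in the WT libraries. Their part in these differences was not tested.

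At 2, 4, 6 and 9 months limma called 0 of the genes between AD and WT microglia. It called higher and lower 0.0284% and 0.0142% of all genes at 2 months, 0.314% and 0.177% of all genes at 4 months, 0.688% and 0.425% of all genes at 6 months and 1.71% and 1.05% of all genes at 9 months. The counts at an unadjusted p under 0.05 were 7 at 2 months, 4 at 4 months, 2 at 6 months and 9 at 9 months. Read from the group values with the fold threshold alone and no test, 1 gene was higher and 7 lower at 2 months, 2 and 0 at 4 months, 0 and 4 at 6 months and 0 and 3 at 9 months. The share of all genes at these looser criteria is not given beside these counts, so they are not read as results about the genes. Quantile normalization called Calr lower in AD at 2 months and Calr and Pdia3 at 4 months. At 2 months Hspa1a stood at 247, 117 and 201 FPKM in AD and 436, 296 and 219.8 FPKM in WT, at an adjusted p by limma of 0.747 (log2 fold change -0.77).

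**Figure D5:**
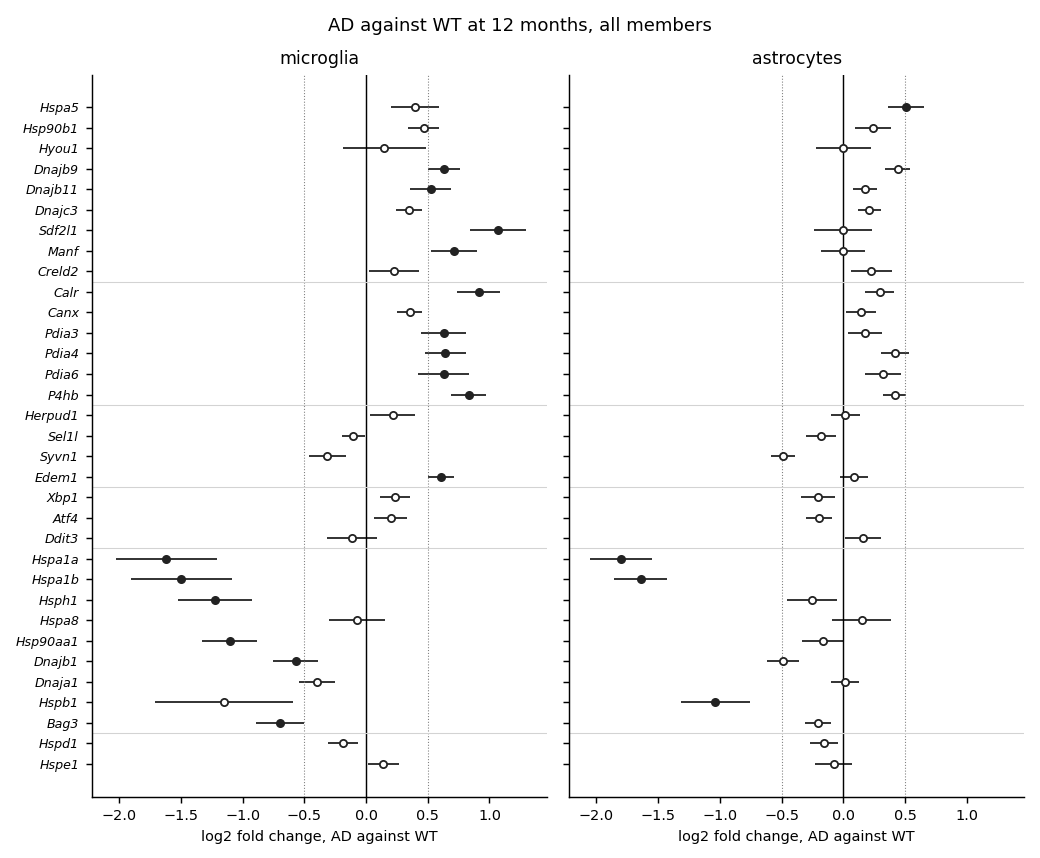
Log2 fold change of AD against WT at 12 months for each of the 33 genes in microglia and in astrocytes; bars are standard errors, filled points are called and dotted lines mark 0.5 in either direction. In microglia 10 genes, led by Sdf2l1 at 1.07, lie to the right and 6, led by Hspa1a at -1.62, to the left, and in astrocytes 1 and 3.

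Between AD and WT astrocytes at 12 months, 1 of 33 genes was called higher and 3 lower, while 8.38% of all genes tested were called higher and 10.9% lower. Hspa5 was higher, at 173, 169 and 219 FPKM in AD and 110.3, 128 and 157 FPKM in WT (log2 fold change 0.51 ± 0.15 (SE), adjusted p = 0.0127). Hspa1b was lower, at 39.3, 36.9 and 50.4 FPKM in AD and 153, 104 and 141 FPKM in WT (log2 fold change -1.64 ± 0.22 (SE), adjusted p = 1.88e-05), as was Hspa1a (log2 fold change -1.80 ± 0.25 (SE), adjusted p = 3.18e-05). Hspb1 was lower, at 126, 179 and 231 FPKM in AD and 322, 377 and 369 FPKM in WT (log2 fold change -1.04 ± 0.28 (SE), adjusted p = 0.00801). The libraries of Hspa1b and Hspa1a did not overlap, and those of Hspb1 did not overlap. The calls of Hspa5 (0.38, WT 12-month library a or AD 12-month library c) and Hspb1 (-0.80, AD 12-month library a) were lost in some fits with 1 library left out. Under quantile normalization and with size factors drawn from genes with 1 FPKM or more the split was 0 higher and 5 lower, and with the length trend removed 0 higher and 4 lower. Beside them, 8 of 12 immediate-early genes were called lower in AD, and the endothelial markers summed to 313 FPKM in AD and 813 FPKM in WT. Their part was not tested.

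At 4 months 0 of 32 genes were called higher and 4 lower, Hspb1 (-1.08), Hspa1b (-0.93), Pdia3 (-0.56) and Calr (-0.55), while 1.16% of all genes tested were called higher and 0.702% lower. Hspb1 libraries held 182, 285 and 203 FPKM in AD and 465, 483 and 410.2 FPKM in WT (log2 fold change -1.08 ± 0.28 (SE), adjusted p = 0.0473). The split was 1 higher and 0 lower under quantile normalization and 1 higher and 2 lower with size factors drawn from genes with 1 FPKM or more. The calls of Calr (-0.50, 3 libraries), Hspa1b (-0.67, 5 libraries), Hspb1 (-0.95, 18 libraries) and Pdia3 (-0.47, 4 libraries) were lost in some fits with 1 library left out. The endothelial markers summed to 1021 FPKM in AD and 2133 FPKM in WT at this age, and their part was not tested. At 2, 6 and 9 months limma called 0 of the genes in astrocytes. It called higher and lower 0.02% and 0.00668% of all genes at 2 months, 3.76% and 3.68% of all genes at 6 months and 0.415% and 0.565% of all genes at 9 months. The counts at an unadjusted p under 0.05 were 6, 5 and 5, without the share of all genes at that criterion, and are not read as results about the genes. At 9 months Hsp90aa1 missed the threshold in the main analysis (log2 fold change 0.68, adjusted p by limma 0.0512) and was called higher under 5 of 6 alternatives, all but that with no filter on low values, at adjusted p of 0.0253 to 0.0491. At 2 months Dnajb1 was called lower under quantile normalization and with the length trend removed.

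Whether a change with age differed between the genotypes was tested as a difference of differences. In microglia the change from 2 to 12 months was more positive in AD for 6 genes, Calr (1.02), Sdf2l1 (0.98), P4hb (0.82), Manf (0.70), Dnajb9 (0.64) and Hsp90b1 (0.58), and more negative for none, where 11.6% of all genes tested were called higher and 12.6% lower. The change from 6 to 12 months was more positive in AD for 11 genes and more negative for 3, where 15.3% of all genes tested were called higher and 18.4% lower. The first were led by Sdf2l1 and Calr and the second were Hsph1 (-1.39), Bag3 (-0.77) and Dnaja1 (-0.66). Under quantile normalization that split was 2 higher and 6 lower. The change from 2 to 6 months differed for Dnaja1 alone (log2 fold change 0.83 ± 0.18 (SE), adjusted p = 0.0456), where 0.241% of all genes tested were called higher and 0.22% lower.

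In astrocytes the change from 2 to 12 months was more positive in AD for Hspa8 (1.19), Hspa5 (0.78) and Calr (0.70) and more negative for Hspa1b (-1.05), where 2.21% of all genes tested were called higher and 2.7% lower. The change from 6 to 12 months was more positive for Hspa5 (0.80), Pdia4 (0.79), Dnajb9 (0.71), Pdia6 (0.60) and P4hb (0.51) and more negative for Hspa1b (-1.97), Hspa1a (-1.65), Hspb1 (-1.43) and Dnajb1 (-0.64), where 12.9% of all genes tested were called higher and 14.9% lower. The change from 2 to 6 months was more positive for Hspa8 (1.48), Hspb1 (1.33) and Dnajb1 (0.86), where 3.13% of all genes tested were called higher and 4.35% lower. The lowest astrocyte group of Hspa8 was that of AD at 2 months, at 205 FPKM, which enters its differences against 2 months. Its AD libraries of that age lay below those of WT. The 12-against-6 split was 3 higher and 5 lower under quantile normalization and 3 higher and 4 lower with the length trend removed, and the 12-against-2 split 2 higher and 0 lower and 3 higher and 2 lower.

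The other genes of these pathways, 98 in all, were listed by function and not by how they moved. Beside each named one stand the FPKM of the first and second side of the comparison, the log2 fold change and the adjusted p by limma. At 6 months in WT microglia 22 of 96 were called higher and 4 lower, while 17% of all genes tested were called higher and 25.5% lower. They included Ssr2, a subunit of the translocon-associated complex (86.8 against 30.6 FPKM, 1.503, adjusted p = 2.48e-08), and Selenos, of ER-associated degradation (253 against 129.7 FPKM, 0.95, adjusted p = 2.97e-07), on the higher side. On the lower side were the protease Mbtps2, which cuts Atf6 (1.06 against 2.39 FPKM, -1.11, adjusted p = 6.64e-09), and the heat-shock factor Hsf2 (0.407 against 0.886 FPKM, -0.98, adjusted p = 2.29e-05). Of the cytosolic chaperonin TRiC, 6 of 8 subunits were higher. In AD against WT microglia at 12 months 23 of 96 were called higher and 5 lower, while 16.7% of all genes tested were called higher and 20.9% lower. The other ER folding and export genes moved with the ER members, with 10 of 20 higher, 0 lower and a median of 0.62. Serp1, a stress-associated ER membrane protein, was among them (109 against 48.6 FPKM, 1.15, adjusted p = 1.66e-05). The cytosolic Hsp90 gene Hsp90ab1 was lower (307 against 458 FPKM, -0.58, adjusted p = 0.0188), as was Ern1, which encodes the sensor Ire1 (0.761 against 1.31 FPKM, -0.74, adjusted p = 0.00161).

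In WT astrocytes at 6 months 23 of 96 were called higher and 6 lower, while 18.1% of all genes tested were called higher and 23% lower. Fkbp11, an ER prolyl isomerase (6.03 against 2.25 FPKM, 1.57, adjusted p = 9.63e-04), and the small heat-shock gene Hspb8 (16.1 against 8.30 FPKM, 0.998, adjusted p = 6.77e-06) were higher, and Ern1 was lower (0.231 against 0.563 FPKM, -0.98, adjusted p = 6.28e-06). In AD astrocytes at 12 against 2 months 18 of 97 were called higher and 4 lower, while 12.9% of all genes tested were called higher and 13.9% lower. The largest rise named is that of the stress transcription factor Atf3 (12.1 against 3.82 FPKM, 1.69, adjusted p = 8.11e-06). In AD against WT astrocytes at 12 months 6 of 97 were called higher and 3 lower, while 8.38% of all genes tested were called higher and 10.9% lower. The asparagine synthetase gene Asns, a target of Atf4, was higher (7.73 against 2.31 FPKM, 1.64, adjusted p = 5.15e-05). Between microglia and astrocytes 29 of 95 were called higher and 27 lower, while 32.9% of all genes tested were called higher and 36.8% lower. Atf3 (441 against 7.90 FPKM, 5.79, adjusted p = 1.80e-44) and the isomerase Pdia5 (13.1 against 1.32 FPKM, 3.24, adjusted p = 8.39e-32) were higher in microglia. Serpinh1, the collagen chaperone, was lower (0.829 against 23.8 FPKM, -5.39, adjusted p = 1.49e-24).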

How the data were processed

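The authors aligned the reads with Hisat2 v2.0.5 and counted fragments with featureCounts v1.5.0-p3, while the submitters' processing notes name Bowtie 0.12.2 and mm8, so no coordinates were taken from the files. The deposited values are FPKM, 1 per gene and group; how the libraries of a group became 1 value, and the annotation, are not given in the sources used here. Whole counts per library were recovered after the data were seen, as the sets of 2 or 3 counts whose mean FPKM equals the deposited digits: of 284517 values of at least 0.5 FPKM, 98.4% gave 1 set, 1.40% none and 0.222% several, and only single sets were used. The gene length of 1570 genes, among them Dnajc3, Creld2, Syvn1 and Atf4, was inferred in the same way. The divisors of the libraries were scaled depths and not whole fragment totals, so the deposited values were scaled by more than the fragment total. Of 35999 IDs, 35882 matched a symbol.

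Library FPKM were divided by median-of-ratios size factors (0.962 to 1.05 in microglia, 0.986 to 1.05 in astrocytes), and log2(FPKM + 0.1) was fitted with limma 3.58.1 (trend) in R 4.3.3 over the 10 groups of a cell type (18 residual degrees of freedom in microglia, 20 in astrocytes) or all 20 groups, for genes of at least 0.5 FPKM in a group compared. The fixed design foresaw no test with 1 column per group and limma where values per library could be had. The study's own DESeq2 test could not be repeated on FPKM. Fold changes on this scale understate those of low genes. On simulated data for WT microglia at 12 against 2 months, 108 of 200 genes changed by 1 on the log2 scale among 14016 were called (54%) and 7 of 13816 unchanged ones. Alternatives were the FPKM as given, quantile normalization, other size factors, a pseudocount of 1, no filter, removal of a trend in transcript length and each library left out. Members were printed in all groups where their log2 range was at least 1 and their highest FPKM at least 5, besides Hspa5, Xbp1, Atf4, Ddit3, Hspa1a, Hspa1b and Hsp90aa1. Pathway genes named were those past the threshold with the largest difference, at most 2 per list and direction, and 1 gene that this rule would name is not reported here. The members and gene lists were chosen with earlier results of these data known.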

Additional observations from a re-analysis of the deposited data

Results flagged for a closer look

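The results gathered here are those in which a change with age differed between AD and WT mice by limma's test of the difference itself; each is given as the log2 difference of the changes, AD minus WT, ± SE, at an adjusted p over all genes below 0.05. In microglia, the change from 2 to 12 months differed for Calr (1.02 ± 0.23), Sdf2l1 (0.98 ± 0.31), P4hb (0.82 ± 0.19), Manf (0.70 ± 0.24), Dnajb9 (0.64 ± 0.18) and Hsp90b1 (0.58 ± 0.17), with adjusted p from 0.00344 to 0.0398. The change from 6 to 12 months differed for Sdf2l1 (1.23 ± 0.31), Calr (1.23 ± 0.23), P4hb (0.97 ± 0.19), Manf (0.96 ± 0.24), Pdia4 (0.94 ± 0.22), Pdia6 (0.89 ± 0.28), Dnajb11 (0.86 ± 0.23), Pdia3 (0.76 ± 0.25), Edem1 (0.74 ± 0.14), Dnajb9 (0.66 ± 0.18), Hsp90b1 (0.57 ± 0.17), Dnaja1 (-0.66 ± 0.19), Bag3 (-0.77 ± 0.26) and Hsph1 (-1.39 ± 0.40), with adjusted p from 4.35e-04 to 0.0232. The change from 2 to 6 months differed for Dnaja1 (0.83 ± 0.18), with adjusted p = 0.0456. Not called in every fit with 1 library left out were, for 12 against 2 months, Dnajb9 (0.53, WT 12-month library a), Hsp90b1 (0.51, WT 12-month library a), Manf (0.54, 7 libraries) and Sdf2l1 (0.69, 4 libraries), for 12 against 6 months, Bag3 (-0.58, 3 libraries), Dnaja1 (-0.50, WT 12-month library b), Hsp90b1 (0.50, WT 12-month library a), Pdia3 (0.69, 3 libraries) and Pdia6 (0.72, WT 12-month library b), and for 6 against 2 months, Dnaja1 (0.75, 19 libraries).

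In astrocytes, the change from 2 to 12 months differed for Hspa8 (1.19 ± 0.34), Hspa5 (0.78 ± 0.21), Calr (0.70 ± 0.17) and Hspa1b (-1.05 ± 0.31), with adjusted p from 0.0176 to 0.0436. The change from 6 to 12 months differed for Hspa5 (0.80 ± 0.21), Pdia4 (0.79 ± 0.16), Dnajb9 (0.71 ± 0.14), Pdia6 (0.60 ± 0.21), P4hb (0.51 ± 0.14), Dnajb1 (-0.64 ± 0.19), Hspb1 (-1.43 ± 0.40), Hspa1a (-1.65 ± 0.36) and Hspa1b (-1.97 ± 0.31), with adjusted p from 2.03e-04 to 0.0331. The change from 2 to 6 months differed for Hspa8 (1.48 ± 0.34), Hspb1 (1.33 ± 0.40) and Dnajb1 (0.86 ± 0.19), with adjusted p from 0.016 to 0.042. The differences of Hspa8 against 2 months include its lowest astrocyte group, that of AD at 2 months, at 205 FPKM. Not called in every fit with 1 library left out were, for 12 against 2 months, Calr (0.56, WT 2-month library c), Hspa1b (-0.94, 11 libraries), Hspa5 (0.65, 6 libraries) and Hspa8 (0.97, 9 libraries), for 12 against 6 months, P4hb (0.43, 5 libraries) and Pdia6 (0.44, 6 libraries), and for 6 against 2 months, Hspb1 (1.08, 10 libraries). The differences of 12 against 2, 12 against 6 and 6 against 2 months share libraries and are not independent of each other. Groups of 2 or 3 libraries are too small for a test of single outlying libraries.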

How the results depend on the processing

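Of 1447 called values recomputed under the alternatives, 1446 kept their direction and 1230 their call; the exception in direction was Hspa5 in WT microglia at 6 against 2 months, 0.51 in the main analysis and -0.02 under quantile normalization. Of 245 calls, quantile normalization kept 163, size factors drawn from genes with 1 FPKM or more 211, no filter on low values 215, the FPKM as given 235 and a pseudocount of 1 237, and removal of a length trend kept 169 of 222. With each library left out, all 222 values kept their direction and 130 were called in every fit. Quantile normalization lowered the genes called at 6 months to 5 in WT microglia (14 in the main analysis), 4 in WT astrocytes (9) and 2 in AD astrocytes (4), and no filter on low values lowered those of AD against WT astrocytes from 8 to 5. Group values with the fold threshold alone, an alternative chosen after seeing the data, gave 9 in AD microglia (5) and 7 in AD astrocytes (4) at 6 months, 35 (16) and 17 (8) for AD against WT in microglia and astrocytes, and 48 (29) for age in WT microglia. The share of all genes past the fold threshold alone is not given, so these larger counts are not read as results about the genes. With 1 library left out, the counts at 6 months ran from 13 to 17 in WT microglia, 4 to 9 in AD microglia (9 without AD 6-month library b), 7 to 10 in WT astrocytes and 2 to 8 in AD astrocytes (8 without AD 6-month library a and 2 without library c). Those of AD against WT ran from 11 to 20 in microglia and 4 to 12 in astrocytes (5 without AD 4-month library b, 4 without WT 4-month library b and 5 without WT 4-month library c), and those of age from 22 to 34, 35 to 47, 23 to 30 and 22 to 33 in WT and AD microglia and WT and AD astrocytes. The cause of these shifts was not tested. No paired analysis was possible because the recovered libraries carry no replicate number. Genes under 0.5 FPKM in every group compared were not tested, and the study's group values alone give no error.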
